A study of Mus musculus with 12 samples.

Results

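The RNA of 33 listed genes of red blood cells, the globins and other erythroid genes, was followed across 12 liver cell libraries. The genes were taken from a list of symbols that holds 7 globins, 5 genes of the membrane skeleton and its anchors, 8 surface proteins, 8 regulators, and 5 genes of heme synthesis and other red cell functions. Of the 33 symbols, 32 were matched to 1 of the 53715 gene identifiers in the table, and Ahsp was not analysed here. Icam4, a red cell adhesion protein, was listed at 0 counts in all 12 libraries, and all of its exon bases are overlapped by an antisense gene. The other 31 genes passed the filter of more than 10 counts in any library and were tested among 17779 genes. Of these 31, 12 passed only through hepatoblast libraries and could therefore hardly appear as anything but lower elsewhere, so that the counts of called genes below describe the list and are no support for it.

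There were 4 biological replicates in each of 3 groups, all from C57BL/6JOlaHsd mice. Hepatoblasts were E14.5 embryonic liver cells that were enriched as the Dlk1+ fraction on a magnetic column and processed for RNA directly. Each isolation pooled many embryonic livers, and erythrocytes were lysed before the separation. Diff. hepatocytes were grown from such E14.5 hepatoblasts for 4 days on fibronectin, in a differentiation medium with serum, dexamethasone and Matrigel. Mature hepatocytes came from adult male mice of 8 to 12 weeks by collagenase perfusion and were also processed for RNA directly. Poly(A) RNA was read as 75-bp single reads, and the values are counts of reads per gene.

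In the mouse embryo, the liver is the main site of red cell formation from about midgestation until shortly before birth, and erythroblasts lie in contact with the hepatoblasts there. The earliest red cells come from the yolk sac and carry embryonic globins, encoded by Hba-x, Hbb-bh1 and Hbb-y. The definitive red cells made in the liver carry the adult alpha globins, Hba-a1 and Hba-a2, and the adult beta globins, Hbb-bs and Hbb-bt. Their genes are switched on by GATA1 with TAL1, KLF1 and NFE2. Heme is made by a chain of enzymes that starts with ALAS2 in erythroid cells, or ALAS1 elsewhere, and ends with FECH. The adult mouse makes its red cells in bone marrow and spleen.

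Each library held between 19581551 and 25216977 counts, and levels are given as CPM, which is counts per 1000000 after TMM scaling of the library sizes. The TMM factors ran from 1.23 to 1.44 for hepatoblasts, from 1.02 to 1.08 for Diff. hepatocytes and from 0.677 to 0.778 for mature hepatocytes. The hepatoblast markers Dlk1, Afp and Alb were abundant in all 4 hepatoblast libraries, with means of 3521, 39313 and 37733 CPM. Hepatoblasts replicate 1 stood apart from the other 3 hepatoblast libraries in nearly all of the listed genes. Most comparisons of the listed genes with hepatoblasts are therefore also given without it. Fold changes of single genes outside the list use all 4 hepatoblast libraries and may depend on replicate 1. The cells of a library were sequenced in bulk, so that fewer erythroid cells and less erythroid RNA per cell cannot be told apart.

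The 32 genes together took 0.695% of the counts in hepatoblasts replicate 1 and 0.138%, 0.103% and 0.0773% in replicates 2, 3 and 4. In Diff. hepatocytes this share was between 0.0114% and 0.0145%, and in mature hepatocytes it was between 0.0347% and 0.0386%. The make-up of the share differed between the groups. The globins held between 39.8% and 41.7% of the listed genes' counts in all 4 hepatoblast libraries, although the summed level of the list ran from 627 to 4817 CPM. In mature hepatocytes, Fech, Alas2 and Aqp1 together held between 91.0% and 93.5% of these counts. In Diff. hepatocytes, Fech alone held between 52.0% and 67.6%.

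**Figure D1:**
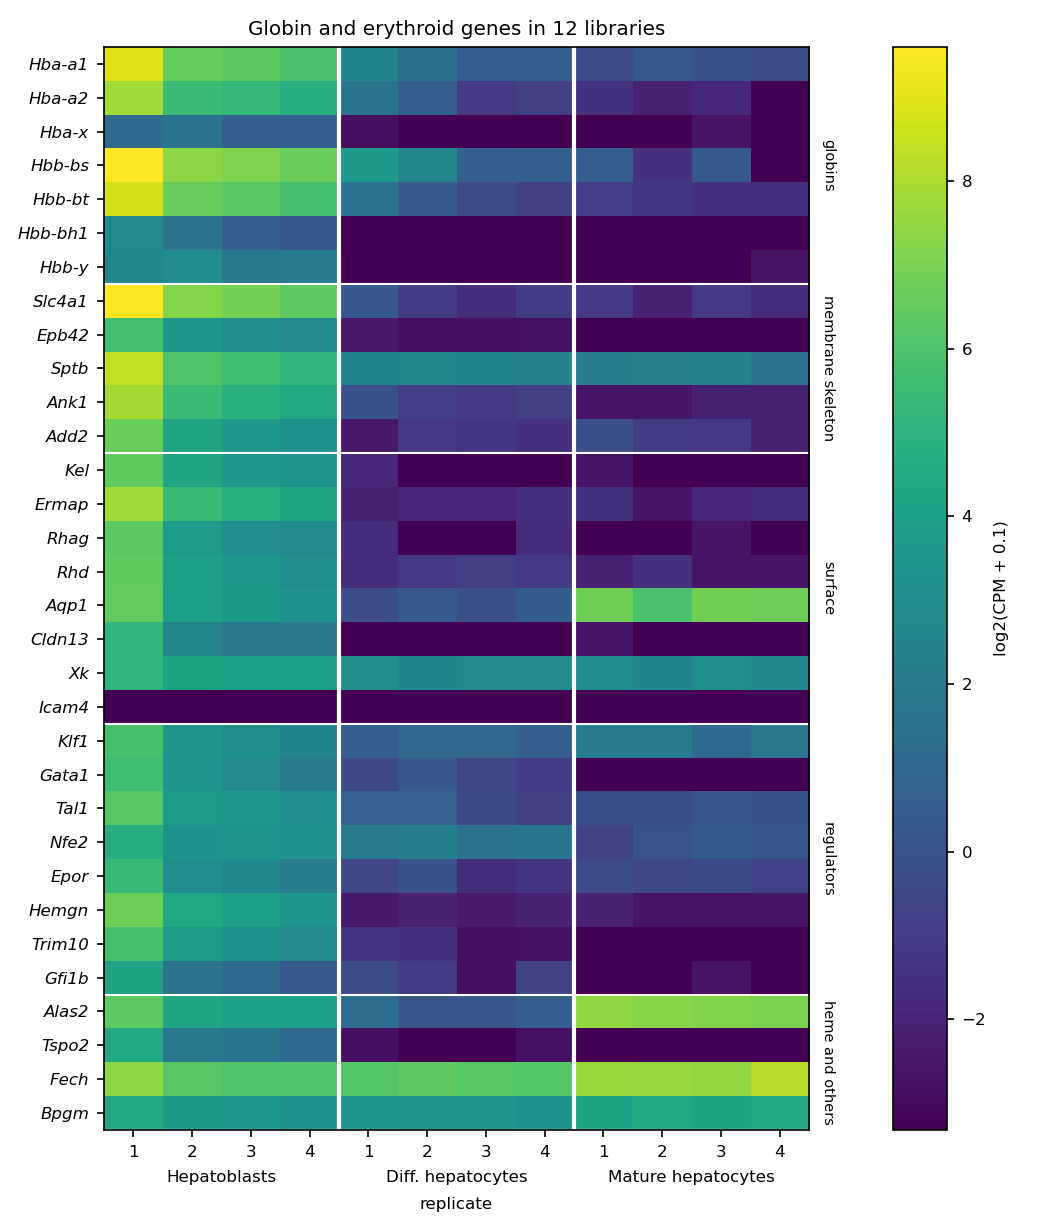
Heatmap of the level of each of the 32 matched genes, in rows by role, in the 12 libraries, in columns by group and replicate. Colour gives log2(CPM + 0.1). The column of hepatoblasts replicate 1 is brighter than the next 3 in all roles, and in mature hepatocytes the rows of Alas2, Aqp1 and Fech stay bright while those of the globins are dark.

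Per kilobase of exon, the globins led the list in hepatoblasts. Hbb-bs had a mean of 384 CPM per kb, followed by Hbb-bt with 236, Hba-a1 with 224 and Hba-a2 with 127 CPM per kb. Slc4a1 came next with 57.0 CPM per kb, Rhd with 19.0 CPM per kb and Hemgn with 15.6 CPM per kb. Each of these genes lay above the next in 4 of 4 hepatoblast libraries, although the levels of neighbours overlapped between libraries because of replicate 1. Below them, Ermap with 15.1 and Alas2 with 14.3 CPM per kb changed places between libraries. In mature hepatocytes the order was Alas2 with 62.9, Aqp1 with 37.5, Fech with 15.8 and Bpgm with 5.33 CPM per kb, each above the next in 4 of 4 libraries. In Diff. hepatocytes Hbb-bs had 7.08 and Fech 5.43 CPM per kb, and each of these was the higher in 2 of 4 libraries.

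Against hepatoblasts, 29 of the 31 tested genes were called lower in Diff. hepatocytes and 0 were called higher. Genes were tested by quasi-likelihood in edgeR with p-values adjusted by Benjamini-Hochberg, and a call required an adjusted p under 0.01 together with a log2 fold change beyond 1 in either direction. Over all 17779 genes, 14.0% were called lower and 14.9% higher in this comparison. Over the 31 genes, log2 fold changes had a median of -6.47, beside -0.01 over all tested genes, and it was -5.10 without hepatoblasts replicate 1, when 29 genes were again called lower. The genes that were not called were Fech and Bpgm. None of the 31 genes was higher at an unadjusted p under 0.05 by edgeR, and DESeq2 also called 0 higher.

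In mature hepatocytes, 27 of the 31 genes were called lower than in hepatoblasts, where 24.7% of all tested genes were lower. The genes called higher were 2, Alas2 and Fech, beside 20.1% of all tested genes, and Aqp1 and Bpgm were not called. The median log2 fold change was -8.15, or -7.85 with the 5 genes that had 0 counts in mature hepatocytes set at their bound, and it was -0.15 over all tested genes. Without hepatoblasts replicate 1, the median was -7.44, with 27 genes lower and 3 higher, among them Aqp1. Both comparisons share the hepatoblast libraries, so that their values are not independent of each other.

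**Figure D2:**
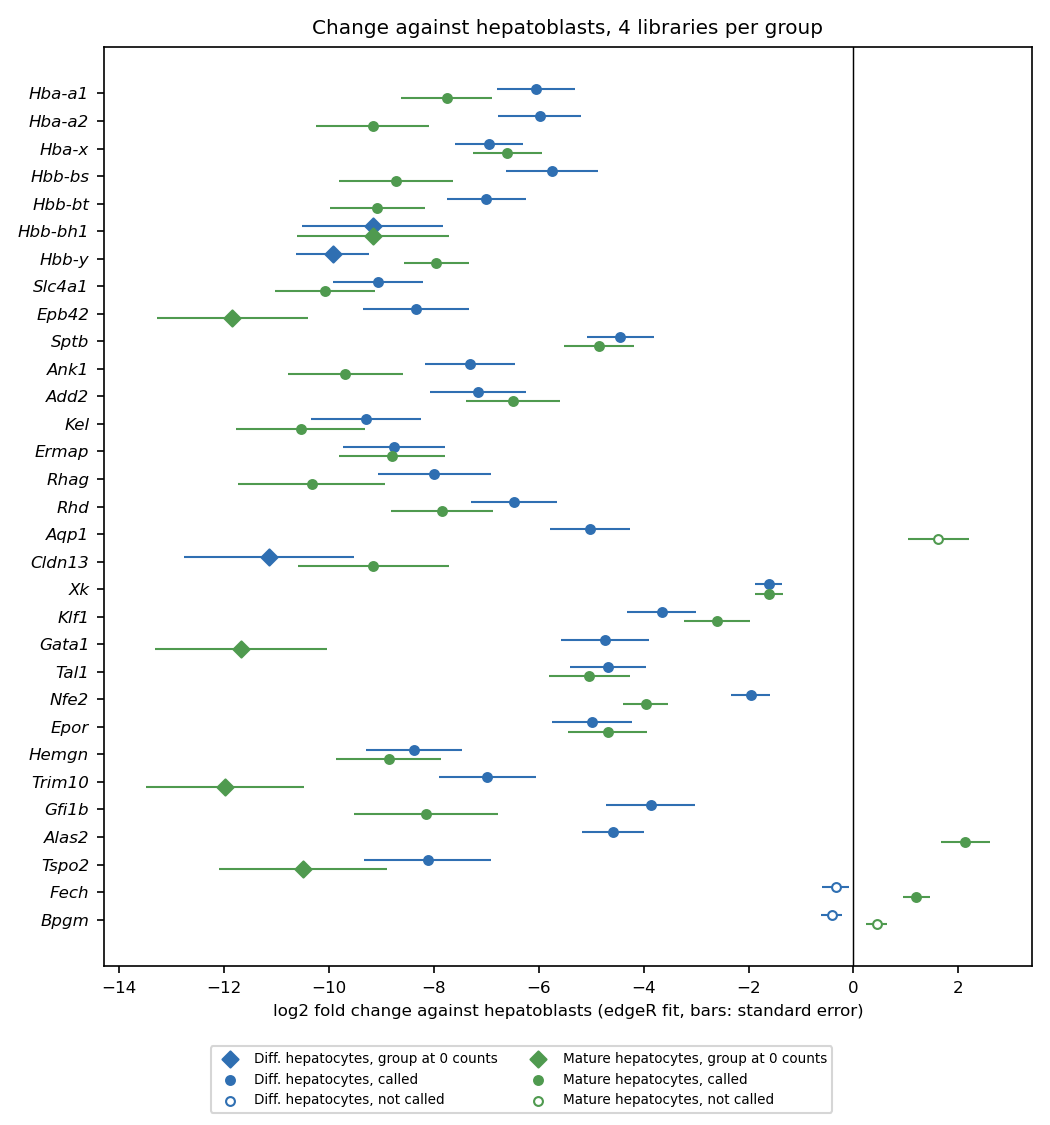
Log2 fold change of each of the 31 tested genes against hepatoblasts, for Diff. hepatocytes (blue) and mature hepatocytes (green), with the standard error of the edgeR fit. Open circles were not called, and diamonds mark groups with 0 counts, where the fitted value is no bound. Alas2, Aqp1, Fech and Bpgm lie right of 0 in mature hepatocytes, and the other 27 genes lie left of 0 in both.

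The promoters of 3 beta globin genes are shown because these genes stand for the adult and the embryonic globins in the counts below. Each sequence runs from 250 bases before to 50 bases after the start of the gene in RefSeq on GRCm38.p6. Capitals mark GATA boxes, which are the letters GATA after A or T and before A or G on either strand and which GATA1 is known to bind, and CACCC boxes, which are CCNCNCCC on either strand, letters of the kind that KLF1 is known to bind. Matches of the CACCC box may overlap each other.
Hbb-bs promoter, chr7:103827879-103828178, minus strand: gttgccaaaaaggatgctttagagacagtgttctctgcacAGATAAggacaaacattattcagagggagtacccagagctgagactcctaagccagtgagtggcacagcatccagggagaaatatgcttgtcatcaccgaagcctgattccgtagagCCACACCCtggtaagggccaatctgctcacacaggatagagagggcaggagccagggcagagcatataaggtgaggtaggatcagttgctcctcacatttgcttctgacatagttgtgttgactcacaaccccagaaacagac
Hbb-bt promoter, chr7:103813874-103814173, minus strand: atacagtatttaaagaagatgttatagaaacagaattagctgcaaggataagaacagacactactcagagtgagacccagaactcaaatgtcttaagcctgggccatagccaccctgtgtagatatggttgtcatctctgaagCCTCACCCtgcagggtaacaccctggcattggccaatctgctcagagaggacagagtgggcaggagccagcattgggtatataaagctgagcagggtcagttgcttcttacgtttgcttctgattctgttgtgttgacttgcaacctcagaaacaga
Hbb-y promoter, chr7:103853158-103853457, minus strand: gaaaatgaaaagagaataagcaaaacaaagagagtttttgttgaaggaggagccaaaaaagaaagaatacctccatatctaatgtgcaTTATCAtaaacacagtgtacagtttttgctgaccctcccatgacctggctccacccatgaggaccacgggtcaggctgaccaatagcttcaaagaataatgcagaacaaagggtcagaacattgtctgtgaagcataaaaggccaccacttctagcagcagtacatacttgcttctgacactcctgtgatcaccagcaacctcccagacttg
In these windows, Hbb-bs holds 1 GATA box and 1 CACCC box, Hbb-bt holds 1 CACCC box and no GATA box of these letters, and Hbb-y holds 1 GATA box and no CACCC box of these letters. Of the listed genes, 26 had an entry, with 27 promoters since Tal1 has 2. A GATA box was found in 20 of the 27 promoters, 74.1%, beside 29.8% of all 32851 promoters of this length. A CACCC box was found in 17, 63.0% beside 49.5%, and both were found in 10, 37.0% beside 10.2%. These shares describe the letters of the windows and say nothing of binding in these cells.

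All 7 globins were called lower in both hepatocyte groups than in hepatoblasts. The most abundant was Hbb-bs (ENSMUSG00000052305, chr7:103826534-103828096 of GRCm38, minus strand), an adult beta globin. It had 777, 161, 139 and 102 CPM in hepatoblasts replicates 1 to 4. In Diff. hepatocytes it had 12.8, 6.07, 1.38 and 1.53 CPM, and in mature hepatocytes it had 1.37, 0.257, 1.17 and 0 CPM. The groups of hepatocytes did not overlap with hepatoblasts, and the range within hepatoblasts came mostly from replicate 1. For Diff. hepatocytes its log2 fold change was -5.75 (standard error 0.87, edgeR adjusted p = 8e-05), and for mature hepatocytes -8.72 (standard error 1.09, edgeR adjusted p = 7.67e-06). Leaving out hepatoblasts replicate 1 gave -4.60 and -7.59, with both calls kept. Hbb-bt (ENSMUSG00000073940, chr7:103812524-103813996), the other adult beta globin, had 430, 98.4, 78.8 and 55.1 CPM in hepatoblasts. It had between 0.443 and 2.72 CPM in Diff. hepatocytes and between 0.233 and 0.411 CPM in mature hepatocytes, with log2 fold changes of -7.00 and -9.08, or -5.89 and -7.99 without hepatoblasts replicate 1.

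The adult alpha globins showed the same order of libraries within hepatoblasts. Hba-a1 (ENSMUSG00000069919, chr11:32283511-32284465) had 494, 94.8, 80.9 and 58.5 CPM in hepatoblasts, 5.53, 2.5, 1.33 and 1.53 CPM in the Diff. hepatocytes and between 0.683 and 1.15 CPM in mature hepatocytes. Hba-a2 (ENSMUSG00000069917, chr11:32296489-32297298) had 227, 44.5, 39.0 and 28.4 CPM in hepatoblasts and at most 3.02 CPM in any hepatocyte library. Their log2 fold changes were -6.05 and -5.98 in Diff. hepatocytes, and -7.76 and -9.17 in mature hepatocytes. Leaving out hepatoblasts replicate 1 gave -4.82 and -4.79, and -6.54 and -7.99. Sister globins cannot be fully separated by short reads. Of the 75-base sequences of their transcripts, 67.9% of Hba-a1 and 84.6% of Hba-a2 also occur in the sister gene, as do 51.5% of Hbb-bs and 56.6% of Hbb-bt, whereas the 3 embryonic globins share none. When the sister genes were summed before the fit, 27 and 25 of the then 29 tested genes were lower in Diff. and mature hepatocytes, and both sums were among them.

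The embryonic globins were low in all libraries. Hbb-y (ENSMUSG00000052187, chr7:103851749-103853216), the embryonic epsilon-like globin, had 5.96, 7.58, 3.62 and 3.81 CPM in hepatoblasts. Hba-x, the embryonic zeta globin, had 2.19, 2.98, 1.52 and 1.46 CPM there. These were the genes of the list that were not highest in hepatoblasts replicate 1. Hbb-bh1, an embryonic beta-like globin, had 6.96, 2.92, 1.42 and 1.06 CPM and kept the order of the adult globins. In Diff. hepatocytes the 4 libraries together held 0 counts of Hbb-y, 0 of Hbb-bh1 and 1 of Hba-x. With a floor of 3 counts over the group, Hbb-y was at least 156-fold and Hbb-bh1 at least 92-fold higher in hepatoblasts than in Diff. hepatocytes, or 149-fold and 53.6-fold without replicate 1. For Hba-x the ratio was 182, with a 95% counting interval of 32.6 to 7182. In mature hepatocytes Hbb-y and Hba-x each had 1 count, for ratios of 333 (59.7 to 13140) and 129 (23.2 to 5108), and Hbb-bh1 had 0, at least 65.4-fold lower than in hepatoblasts, or 38.1-fold without replicate 1.

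Embryonic globins made up 0.778% of all globin counts in hepatoblasts replicate 1 (95% Wilson interval 0.711% to 0.851%). In replicates 2, 3 and 4 this share was 3.27% (2.99% to 3.58%), 1.91% (1.67% to 2.19%) and 2.53% (2.20% to 2.91%). The interval of replicate 1 lay below those of the other 3 libraries, while the summed embryonic globins had 15.1 CPM there against 13.5, 6.57 and 6.33 CPM. The adult globins summed to 1929 CPM in replicate 1 against 399, 338 and 244 CPM. The intervals cover counting error only, since reads are not independent molecules. In Diff. hepatocytes replicate 1, there was 1 embryonic beside 557 adult globin counts, 0.179% (0.0316% to 1.01%). In replicates 2, 3 and 4 there were 0 beside 260, 85 and 80 adult counts, which by a limit of 3 counts allows shares of up to 1.15%, 3.53% and 3.75%. The upper ends of their 95% Wilson intervals were 1.46%, 4.32% and 4.58%. Replicates 1 and 2 thus lay below hepatoblasts replicates 2 to 4 in this share but could not be told from hepatoblasts replicate 1, and for replicates 3 and 4 no difference was detectable at this depth.

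**Figure D3:**
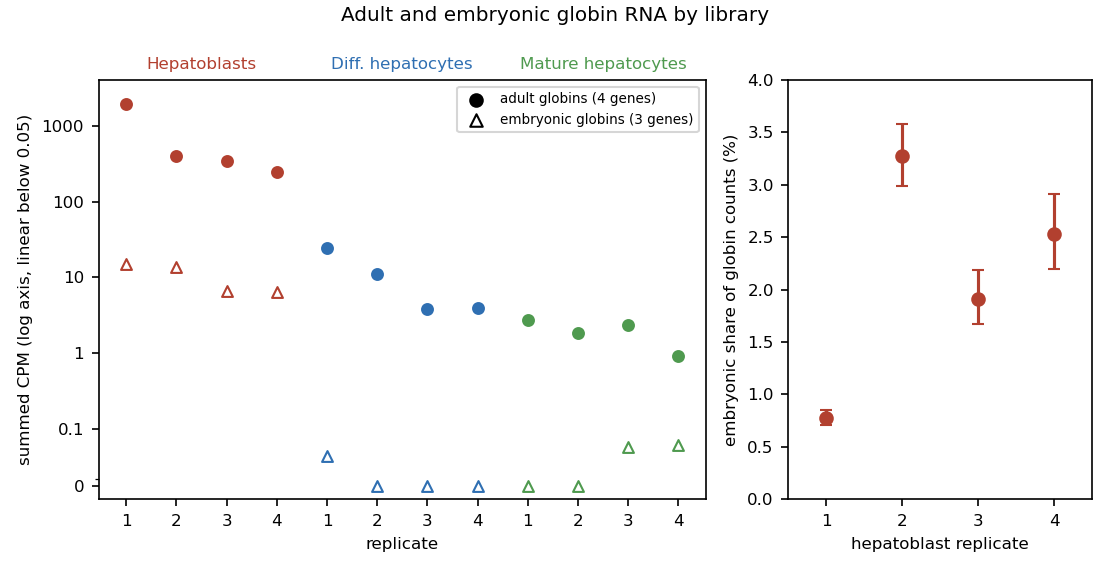
Left, summed CPM of the 4 adult globins (circles) and the 3 embryonic globins (triangles) in each library, on a log axis that is linear below 0.05. Right, the embryonic share of globin counts in the 4 hepatoblast libraries, with 95% Wilson intervals. Adult globins had between 1929 CPM in hepatoblasts replicate 1 and 244 CPM in replicate 4, and the embryonic share was 0.778% in replicate 1 against 1.91% to 3.27% in the others.

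All 5 genes of the membrane skeleton and its anchors were called lower in both hepatocyte groups. Slc4a1 (ENSMUSG00000006574, chr11:102348824-102366203, minus strand) encodes band 3, the anion exchanger of the red cell membrane. It had 765, 148, 118 and 84.9 CPM in hepatoblasts, 1.04, 0.387, 0.222 and 0.394 CPM in the Diff. hepatocytes, and between 0.128 and 0.350 CPM in mature hepatocytes. Band 3 RNA had a log2 fold change of -9.07 for Diff. hepatocytes (standard error 0.86, edgeR adjusted p = 1.19e-06) and of -10.08 for mature hepatocytes (standard error 0.96, edgeR adjusted p = 5.48e-07), or -7.80 and -8.83 without hepatoblasts replicate 1. Ank1, the ankyrin that ties band 3 to spectrin, had 235, 44.1, 30.7 and 20.6 CPM in hepatoblasts and log2 fold changes of -7.31 and -9.69. Epb42, protein 4.2, went from a mean of 19.9 CPM to 0.0558 CPM in Diff. hepatocytes and had 0 counts in mature hepatocytes, at least 420-fold lower, or at least 185-fold without hepatoblasts replicate 1. Add2, beta-adducin, had log2 fold changes of -7.16 and -6.49.

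Sptb, the beta-spectrin of red cells, had the smallest changes of these 5. It had 340, 67.6, 49.7 and 34.7 CPM in hepatoblasts and kept between 5.37 and 5.76 CPM in Diff. hepatocytes and between 2.92 and 5.07 CPM in mature hepatocytes. All 8 hepatocyte libraries lay below the hepatoblasts. The log2 fold changes were -4.45 and -4.85, or -3.17 and -3.58 without hepatoblasts replicate 1. Without that library, the log2 fold changes of Ank1 were -5.93 and -8.32 and those of Add2 were -5.73 and -5.07.

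Of the 8 surface genes, the 7 with counts were called lower in Diff. hepatocytes, and 6 of them in mature hepatocytes. Ermap, which carries the Scianna blood group, had 227, 43.7, 29.1 and 20 CPM in hepatoblasts and at most 0.274 CPM in any hepatocyte library. Kel, the Kell blood group peptidase, had 85.7, 18.5, 11.9 and 10.3 CPM in hepatoblasts. It had 4 counts in Diff. hepatocytes, all of them in replicate 1 (0.173 CPM), and 1 count in mature hepatocytes, for a ratio of 2005 (95% counting interval 360 to 79191), or 861 without hepatoblasts replicate 1. Rhag and Rhd, the Rh complex, had 80.3, 13.4, 8.03 and 6.92 CPM and 85.9, 15.5, 11.6 and 8.41 CPM in hepatoblasts, with log2 fold changes of -7.99 and -6.47 in Diff. hepatocytes. These were -6.47 and -5.10 without hepatoblasts replicate 1. Cldn13, a claudin, had 36.2, 5.79, 3.33 and 3.35 CPM in hepatoblasts and 0 counts in Diff. hepatocytes, at least 361-fold lower, or 124-fold without that library.

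Xk, the membrane protein that pairs with Kell, changed least among the called surface genes. It had 35.7, 17.8, 15.5 and 16 CPM in hepatoblasts, 8.30, 5.55, 6.57 and 7.24 CPM in the Diff. hepatocytes, and 7.74, 5.58, 8.46 and 6.02 CPM in mature hepatocytes. The hepatocyte libraries lay below all hepatoblast libraries and overlapped with each other. The log2 fold changes were -1.62 and -1.61 (standard error 0.26 each, edgeR adjusted p = 0.000133 and 9.42e-05), and -1.24 in both without hepatoblasts replicate 1.

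All 8 regulators were called lower in both hepatocyte groups. Gata1 (ENSMUSG00000031162, chrX:7959260-7978071, minus strand), the factor that directs red cell formation, had 49.5, 10.7, 6.60 and 4.11 CPM in hepatoblasts. It had 0.605, 1.03, 0.577 and 0.394 CPM in Diff. hepatocytes, from 14, 24, 13 and 8 counts, and 0 counts in mature hepatocytes. This was a log2 fold change of -4.74 for Diff. hepatocytes (standard error 0.84, edgeR adjusted p = 0.000668), or -3.42 without hepatoblasts replicate 1. In mature hepatocytes Gata1 was at least 375-fold lower, or 151-fold without that library. Hemgn, the nuclear protein hemogen, fell further than Gata1 in Diff. hepatocytes, from 108, 21.3, 16.1 and 11.0 CPM to between 0.0864 and 0.148 CPM, a log2 fold change of -8.38, or -7.09 without that library. Gfi1b, a repressor of the erythroid and megakaryocyte lines, went from 17.6, 3.04, 2.01 and 1.23 CPM to 0.691, 0.387, 0.0444 and 0.493 CPM, a log2 fold change of -3.87, or -2.35 without that library.

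Tal1, a partner of GATA1, had 77.0, 13.8, 11.6 and 8.02 CPM in hepatoblasts, 1.60, 1.59, 0.621 and 0.443 CPM in the Diff. hepatocytes and between 0.754 and 0.992 CPM in mature hepatocytes. Epor, the erythropoietin receptor, had 43.9, 8.09, 6.34 and 4.34 CPM, 0.562, 0.860, 0.222 and 0.296 CPM and between 0.496 and 0.685 CPM. Their log2 fold changes were -4.68 and -4.98 in Diff. hepatocytes and -5.04 and -4.69 in mature hepatocytes. Without hepatoblasts replicate 1 they were -3.36 and -3.65, and -3.74 and -3.38. Trim10, a protein of maturing erythroblasts, had 15 counts in Diff. hepatocytes and 0 in mature hepatocytes, at least 460-fold lower than in hepatoblasts, or 212-fold without replicate 1.

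Among the regulators, Nfe2 had the log2 fold change nearest to 0 in Diff. hepatocytes, and Klf1 in mature hepatocytes. Klf1 (ENSMUSG00000054191, chr8:84901928-84905291), which activates the adult beta globin genes, had 57.2, 10.3, 8.58 and 5.66 CPM in hepatoblasts. It had 1.34, 1.85, 1.82 and 1.43 CPM in Diff. hepatocytes and 4.04, 4.04, 2.04 and 3.41 CPM in mature hepatocytes, from 35 to 63 counts a library. All 4 mature libraries lay above all 4 libraries of Diff. hepatocytes, and Gata1 had 0 counts in the mature libraries. The log2 fold change between Diff. and mature hepatocytes was -1.06 and was not called (edgeR adjusted p = 0.179), but was called without hepatoblasts replicate 1, at -1.05 (edgeR adjusted p = 0.0031). Against hepatoblasts the log2 fold changes were -3.66 and -2.60, or -2.33 and -1.28 without that library. Nfe2, a factor of red cells and megakaryocytes, had 28.8, 9.52, 10.4 and 9.11 CPM in hepatoblasts, 4.10, 4.69, 2.84 and 3.15 CPM in the Diff. hepatocytes and 0.480, 0.898, 1.28 and 0.993 CPM in mature hepatocytes. The 3 groups did not overlap. The log2 fold change was -1.96 in Diff. hepatocytes and -3.96 in mature hepatocytes, or -1.37 and -3.38 without that library. The megakaryocyte markers, also blood cells in which Nfe2 is active, summed to 32.9 to 88.2 CPM in Diff. hepatocytes, to 20.4 to 84.9 CPM in hepatoblasts and to 5.34 to 7.25 CPM in mature hepatocytes, and their part in the level of Nfe2 was not tested.

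The genes of heme synthesis and other red cell functions did not move together. Alas2 (ENSMUSG00000025270, chrX:150547375-150570638), the erythroid form of the enzyme that starts heme synthesis, had 85.3, 19.7, 16.6 and 16 CPM in hepatoblasts. Its level was 2.38, 0.989, 0.977 and 1.33 CPM in Diff. hepatocytes. In mature hepatocytes it had 177, 153, 144 and 130 CPM, from 2100 to 2587 counts, in the same libraries that held between 15 and 41 counts of adult globins. All 4 mature libraries lay above all hepatoblast libraries. Alas2 thus had a log2 fold change of -4.59 for Diff. hepatocytes (standard error 0.59, edgeR adjusted p = 1.93e-05) and of 2.13 for mature hepatocytes (standard error 0.47, edgeR adjusted p = 0.00115). Without hepatoblasts replicate 1 these were -3.60 and 3.11. With library totals in place of TMM factors, which moved the median of all genes from -0.15 to -1.0, Alas2 was 1.22 higher in mature hepatocytes and not called. The antisense gene Apex2 overlaps 12.9% of the exon bases of Alas2 and had 772 counts over the 4 mature libraries, below the 9537 of Alas2.

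The Alas2 promoter is shown because Alas2 was the listed gene with the highest level per kilobase in mature hepatocytes. Capitals mark the same boxes as above, and the window holds 1 GATA box and 4 partly overlapping CACCC boxes.
Alas2 promoter, chrX:150547167-150547466, plus strand: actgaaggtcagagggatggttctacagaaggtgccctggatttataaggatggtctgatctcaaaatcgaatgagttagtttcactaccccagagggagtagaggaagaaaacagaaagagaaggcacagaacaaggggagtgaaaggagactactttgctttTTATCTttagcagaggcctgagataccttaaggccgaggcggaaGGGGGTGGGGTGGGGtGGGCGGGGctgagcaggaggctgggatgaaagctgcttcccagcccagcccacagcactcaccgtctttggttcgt

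Fech encodes ferrochelatase, which inserts the iron in the last step of heme synthesis, in erythroid and other cells. It had 168, 76.0, 68.3 and 68.0 CPM in hepatoblasts, 69.6, 82.9, 75.6 and 72.5 CPM in the Diff. hepatocytes and 201, 194, 183 and 296 CPM in mature hepatocytes. The Diff. hepatocytes overlapped with hepatoblasts, while the mature hepatocytes lay above both. Fech had a log2 fold change of -0.34 for Diff. hepatocytes (standard error 0.26, edgeR adjusted p = 0.285), and of 0.10 without hepatoblasts replicate 1. For mature hepatocytes the value was 1.2 (standard error 0.26, edgeR adjusted p = 0.0011), or 1.62 without that library, and 0.30 and not called with library totals. Bpgm, the enzyme that makes 2,3-bisphosphoglycerate in red cells, had 21.8, 12.9, 11.9 and 9.64 CPM in hepatoblasts, 11.0, 10.7, 10.7 and 9.85 CPM in the Diff. hepatocytes and 17.7, 20.5, 17.8 and 20.4 CPM in mature hepatocytes. It was not called in any comparison, with log2 fold changes of -0.41 and 0.44 against hepatoblasts (edgeR adjusted p = 0.0888 and 0.0585). Leaving out hepatoblasts replicate 1 gave -0.11 and 0.73 (edgeR adjusted p = 0.415 and 7.75e-05), where the value for mature hepatocytes missed only the fold threshold. Its mature libraries lay above all Diff. hepatocytes. The log2 fold change of Diff. against mature hepatocytes was -0.86 (edgeR adjusted p = 0.00206), which also missed only the fold threshold. Tspo2, a porphyrin transporter-like protein of erythroblasts, followed the globins instead, with 22.2, 3.61, 3.17 and 2.05 CPM in hepatoblasts, 2 counts in Diff. hepatocytes (ratio 346, 95% counting interval 95.8 to 2858) and 0 in mature hepatocytes, at least 164-fold lower. Without hepatoblasts replicate 1, the ratio was 131 and the bound 62.3-fold.

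Aqp1, the water channel of red cells and of endothelium, was the surface gene with the highest level per kilobase in mature hepatocytes. It had 89.9, 15.6, 13.1 and 9.07 CPM in hepatoblasts, 0.735, 1.12, 0.799 and 1.28 CPM in the Diff. hepatocytes, and 111, 59.9, 116 and 107 CPM in mature hepatocytes. Hepatoblasts replicate 1 lay above mature replicate 2, so that these groups overlapped. Its log2 fold change of 1.62 in mature hepatocytes was not called (standard error 0.58, edgeR adjusted p = 0.0216), and without hepatoblasts replicate 1 it was 2.96 and called (edgeR adjusted p = 1.64e-07). For Diff. hepatocytes the value was -5.02 (standard error 0.76, edgeR adjusted p = 8.27e-05), or -3.68 without that library. Over the same mature libraries, the 8 endothelial markers summed to 244, 136, 252 and 174 CPM, and the vascular receptor Kdr, named after its values were seen, had 59.5, 34.7, 55.1 and 43.9 CPM. Mature replicate 2 was lowest in Aqp1 and in both of these. In Diff. hepatocytes the endothelial sum lay between 51.5 and 101 CPM and in hepatoblasts between 102 and 197 CPM. Most of the sum in Diff. hepatocytes was Stab1, with 92.4, 75.4, 46.7 and 55.9 CPM and a log2 fold change of -0.01 against hepatoblasts. Of the 8 markers, 5 were called lower there, beside 14.0% of all tested genes, and 3, Stab1 among them, were not called. Kdr had 1.17, 1.08, 0.488 and 0.345 CPM in Diff. hepatocytes. None of the 8 markers was at 0 in any group, and the part of endothelial cells in the level of Aqp1 was not tested.

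**Figure D4:**
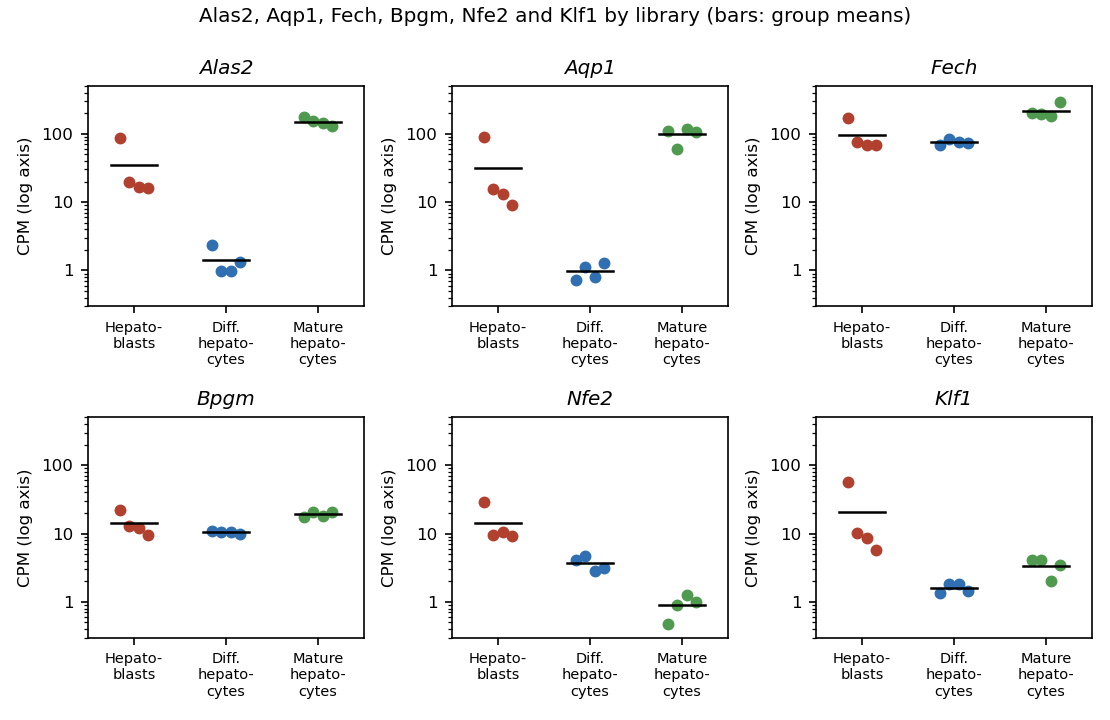
CPM of Alas2, Aqp1, Fech, Bpgm, Nfe2 and Klf1 in each library (points) with the mean of each group of 4 (bars), on log axes of the same range. Alas2 and Aqp1 are near 1 CPM in Diff. hepatocytes and at or above 59.9 CPM in mature hepatocytes, while Fech and Bpgm differ little between hepatoblasts and Diff. hepatocytes.

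The other steps of heme synthesis and its transport, 12 genes that are not part of the list, were also followed. Against hepatoblasts, 1 was higher and 6 lower in Diff. hepatocytes, with a median of -0.96, and 3 were higher and 1 lower in mature hepatocytes, with a median of 0.25. Alas1, the form of the first enzyme in all other tissues, was chosen for its values after they were seen. It had 28.3, 28, 28.9 and 35.3 CPM in hepatoblasts, 213, 239, 227 and 181 CPM in the Diff. hepatocytes and 262, 1784, 845 and 1079 CPM in mature hepatocytes, and was called higher in both (log2 fold change 2.84 and 5.04). Alas1 was not higher in hepatoblasts replicate 1 than in the other 3 hepatoblast libraries, whereas Alas2 was. Cpox, the coproporphyrinogen oxidase, fell by 1.38 on the log2 scale in Diff. hepatocytes, and Slc25a39, a mitochondrial carrier, rose by 1.19 in mature hepatocytes. The size of the fall of Cpox depends on hepatoblasts replicate 1, with 370 CPM against a mean of 124 CPM in the other hepatoblast libraries. In Diff. hepatocytes the mean of Cpox was 71.5 CPM. For Tmem14c, a porphyrin transporter, the log2 fold change was -0.83 in Diff. hepatocytes and was not called.

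The counts of the lists of other genes stand beside 14.0% of all tested genes lower and 14.9% higher in Diff. hepatocytes, and 24.7% lower and 20.1% higher in mature hepatocytes. Of 15 other genes of the red cell membrane, 7 were lower in Diff. hepatocytes and 13 in mature hepatocytes, and 0 were higher in either. The most abundant were Epb41, Add1 and Cd47, which many cells express, and none of these was called in Diff. hepatocytes, with log2 fold changes of -0.09, -0.86 and -0.44. Of 15 other transcription factors of the erythroid line, 7 were lower and 1 higher in Diff. hepatocytes, and 6 were lower and 2 higher in mature hepatocytes. Tcf3, a partner of TAL1, fell by 2.24 and by 1.97, while Klf3 and Ldb1 were not called in either. Of 15 genes of erythropoietin signalling and iron handling, 5 were lower and 2 higher in Diff. hepatocytes. In mature hepatocytes, 4 of these genes were lower and 3 higher. The mature counts and the count of higher genes in Diff. hepatocytes were near the shares over all tested genes. The count of lower genes in Diff. hepatocytes lay above its share of 14.0%. Fth1, the ferritin heavy chain, rose by 1.64 and 1.65, Ftl1, the light chain, rose by 1.19 in mature hepatocytes and had a log2 fold change of -0.12 without a call in Diff. hepatocytes, and Socs3, a brake on cytokine signalling, fell by 4.96 and 1.31. The medians of these lists, heme synthesis included, lay between -1.77 and -0.79 in Diff. hepatocytes. Without hepatoblasts replicate 1, the medians lay between -1.02 and -0.41, with 4, 8, 6 and 5 genes lower in Diff. hepatocytes and 0, 13, 6 and 3 in mature hepatocytes, in the order of the lists.

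Markers of erythroid stages were set beside these genes. Of 7 tested genes of early progenitors, 5 were lower in Diff. hepatocytes and 4 in mature hepatocytes, among them Meis1 and Spn in both. In hepatoblasts replicates 1 to 4, Meis1 had 15.6, 20.7, 21.8 and 23.0 CPM. This was the reverse of the order of Spn, with 41.3, 7.01, 3.82 and 3.11 CPM. Kit, the stem cell factor receptor, fell by 3.66 in Diff. hepatocytes, and had -1.32 without a call in mature hepatocytes. Hepatoblasts replicate 1 weighs on both values, since it held 38.1 CPM of Kit and the other hepatoblast libraries had a mean of 4.62 CPM. The mature mean of 5.19 CPM lay above that lower mean, so that the negative sign rests on replicate 1. Diff. hepatocytes reached at most 1.55 CPM, below the lowest hepatoblast library with 3.54 CPM. Of 11 tested genes of late erythroblasts, 5 and 4 were lower, and 0 and 3 were higher. Tmcc2 fell by 4.16 and 3.63, whereas Xpo7 and Ube2l6 were not called in either.

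Hepatoblasts replicate 1 is a single library, and its differences from the other 3 are given with no test. The median ratio of the listed genes to the mean of replicates 2 to 4 was 6.54, beside 0.957 over all tested genes. All 31 genes were higher than that mean, from 1.10-fold for Hba-x to 8.70-fold for Cldn13, and 29 were highest in replicate 1. Over all tested genes, 7804 of the 17424 with a ratio were higher than that mean, and 5929 of 17779 were highest in replicate 1. In 26 of the 31, the 4 libraries stood in the same order, with replicate 1 first and then 2, 3 and 4. The ratio was even over the membrane skeleton, from 6.07 for Epb42 to 7.73 for Add2, and was lower for Xk with 2.17, Fech with 2.37, Bpgm with 1.90 and Nfe2 with 2.99. Per list, the median ratio was 5.54 for globins, 7.26 for surface genes and 6.92 for regulators.

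Other blood and stromal markers moved in the same library. The 10 neutrophil markers had a median ratio of 12.2 in replicate 1, with Mpo, the myeloperoxidase, at 203, 23.7, 13 and 14.0 CPM, and summed to 533, 60.3, 37.0 and 39.5 CPM. The 14 macrophage markers had a median ratio of 3.45 and the 8 endothelial markers of 2.96. Megakaryocyte markers stood at 2.47, with 10 of 10 highest in replicate 1, beside 5929 of all 17779 tested genes. The 9 mesenchymal markers were lower, with a median ratio of 0.678, as were the hepatoblast markers with 0.660. Dlk1, the antigen used for the isolation, had 2460, 3528, 3901 and 4196 CPM, and Afp had 27562, 40037, 43193 and 46457 CPM, the reverse of the order of the globins. The part of the cell make-up of this library in the erythroid levels was not tested.

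**Figure D5:**
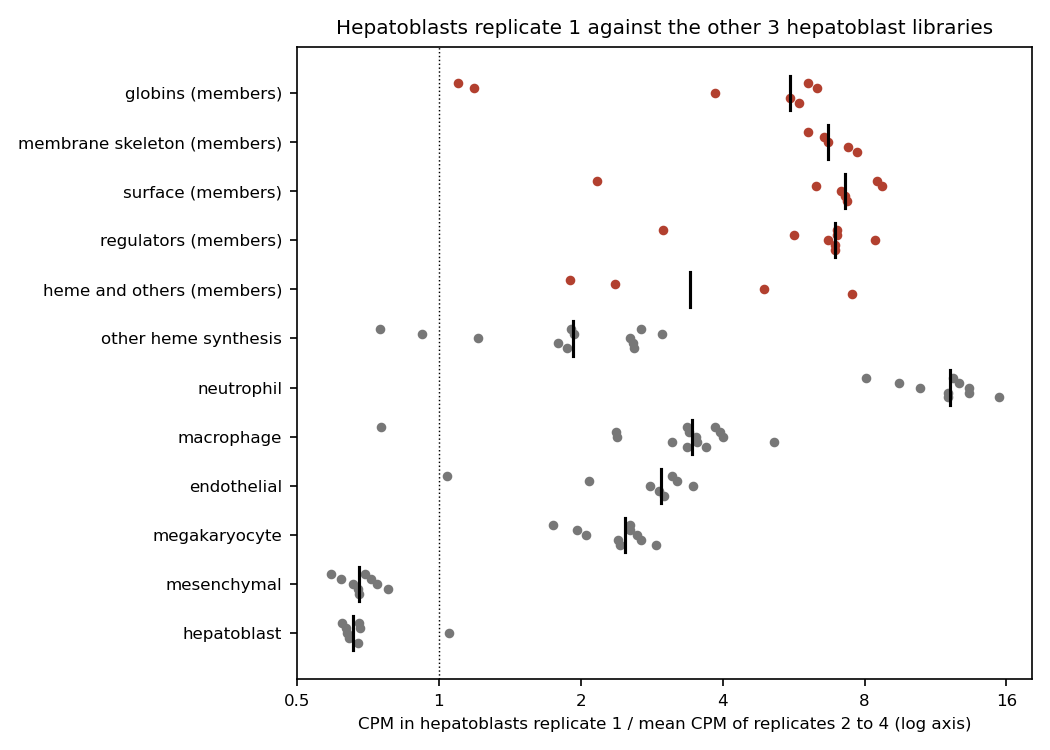
Ratio of the CPM in hepatoblasts replicate 1 to the mean CPM of replicates 2 to 4 for each gene (points) of the listed genes by role (red) and of other lists (grey), on a log axis, with the median of each list (bars). Most listed genes lie between 5.56 and 8.70, Hba-x and Hbb-y lie near 1, neutrophil markers lie higher, and mesenchymal and hepatoblast markers lie below 1 except Epcam at 1.05.

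Small amounts of globin RNA remained in Diff. hepatocytes, unevenly between the libraries. Hbb-bs had 296, 141, 31 and 31 counts and Hba-a1 had 128, 58, 30 and 31 counts in replicates 1 to 4. The neutrophil markers summed to 159, 89.3, 7.90 and 27.3 CPM and the macrophage markers to 215, 113, 52.3 and 67.5 CPM in the same libraries. Both sums, too, were highest in replicate 1 and next in replicate 2. Not all markers kept this order. Mpo had 3.76, 5.72, 0.71 and 2.37 CPM, and the megakaryocyte markers summed to 81.8, 88.2, 32.9 and 47.4 CPM, each highest in replicate 2. The part of these cells in the globin level was not tested. Some proportions among the erythroid genes differed from those in hepatoblasts. The ratio of Slc4a1 to Hbb-bs counts was between 0.831 and 0.985 in hepatoblasts and 0.0811, 0.0638, 0.161 and 0.258 in Diff. hepatocytes (two-sided exact permutation test, p = 0.0286, the smallest that 4 against 4 libraries allow). The ratio of Hbb-bs to Hbb-bt was between 1.64 and 1.85 in hepatoblasts and 4.70, 5.04, 1.94 and 3.44 in Diff. hepatocytes (same exact test, p = 0.0286). For beta over alpha adult globins, the ranges were 1.68 to 1.87 and 1.00 to 1.86 (exact permutation p = 0.314). These 3 ratios were chosen after the values had been seen. Their Benjamini-Hochberg adjusted permutation p-values were 0.0429, 0.0429 and 0.314. The adjustment covers these 3 ratios only and not their choice, so that the p-values are no support for a difference. The counts behind the ratios of Diff. hepatocytes are as low as 9 for Hbb-bt and 5 for Slc4a1, and the sister globins share sequence as given above.

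Diff. and mature hepatocytes were also compared with each other, to see how far the cultured cells stood from adult cells in erythroid RNA. Of the 31 genes, 1 was called higher in Diff. hepatocytes, beside 20.2% of all tested genes, and 3 were called lower, beside 15.6%. Nfe2 was the gene that was higher, by 2.0 on the log2 scale (standard error 0.43, edgeR adjusted p = 0.00119). Alas2, Aqp1 and Fech were lower, by log2 fold changes of -6.73, -6.65 and -1.54 (edgeR adjusted p = 6.67e-07, 6.99e-06 and 0.000207). The 27 other genes were not called, and 15 of the 31 did not overlap between the groups, beside 61.6% of all tested genes. The median log2 fold change was 0.48, beside 0.09 over all tested genes. Hbb-bs had a log2 fold change of 2.97 with no call (edgeR adjusted p = 0.0303), and Gata1, with 0 counts in mature hepatocytes, was not called either (edgeR adjusted p = 0.0313). The fit shares its estimate of spread with hepatoblasts, and without hepatoblasts replicate 1 it called 7 genes higher and 4 lower. The added genes were Ank1, Gata1, Gfi1b, Hba-a1, Hba-a2 and Hbb-bs, which were higher, and Klf1, which was lower. Ank1 had between 0.355 and 0.821 CPM in Diff. hepatocytes and between 0.0641 and 0.124 CPM in mature hepatocytes.

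Genes outside the list whose pattern over the 12 libraries was most like that of the listed genes were named by Pearson's correlation of their log2 CPM with the mean of the listed genes' standardised log2 CPM, among genes with a mean of at least 1 CPM in hepatoblasts. The libraries share the contrast between groups and that of hepatoblasts replicate 1, so that these values are a description. The highest were Redrum (0.996), a long noncoding RNA known from erythroid cells, Gm36948 (0.993), Bcl11a (0.992), a repressor of embryonic globin genes, Cited4 (0.992), Gm37527 (0.991), Btnl10 (0.991), Mtr (0.989) and Srrm1 (0.988). Redrum had 16.8, 3.61, 2.72 and 1.42 CPM in hepatoblasts and 0 in all hepatocyte libraries. Bcl11a had 39.3, 6.65, 3.95 and 3.41 CPM in hepatoblasts and at most 0.246 CPM in any hepatocyte library. Mtr and Srrm1 are alike in pattern but not in size, with 44.2 CPM for Mtr in hepatoblasts replicate 1 and between 16.4 and 19.8 CPM in hepatocytes.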

How the data were processed

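RNA was measured in 12 libraries, 4 each of hepatoblasts, Diff. hepatocytes and mature hepatocytes, grouped by their labels. The authors checked the reads with FastQC 0.11.2, aligned them to GRCm38 and counted them over Ensembl 92 genes with STAR 2.5.2b, and looked at read duplication with Picard 2.10.2. They deposited raw read counts per gene, and the strand setting of these counts is not given in the sources used here.

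The deposited counts were tested with edgeR 4.0.16 (R 4.3.3, limma 3.58.1), by the quasi-likelihood test on TMM-scaled libraries, in 1 fit over all 12 libraries with group as the only term. A gene entered the test if any library held more than 10 counts of it. Calls required a Benjamini-Hochberg adjusted p under 0.01 together with a log2 fold change beyond 1 in either direction. CPM is the count divided by the library total times its TMM factor. Library totals of 19581551 to 25216977 counts set the precision of low values. A group at 0 counts was given a floor of 3 counts over the group. Intervals of shares are 95% Wilson intervals. The labels call the replicates biological and give no more on their source. The edgeR p-values weigh group differences against the spread between these samples, estimated over all 12 libraries with hepatoblasts replicate 1 included.

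The members and gene lists were chosen with earlier results of these data known. All listed genes were named, and of each other list the 3 tested genes with the highest mean CPM in hepatoblasts, plus the 8 other genes most alike in pattern. Gene positions come from GENCODE M21 (Ensembl 96) and promoters from RefSeq on GRCm38.p6. The alternatives were DESeq2 1.42.0, glmTreat, other scalings, filters and thresholds, a replicate block, summed sister globins, only the 8 libraries compared, and leaving out each library. The fit was tested on simulated data. Ahsp is not analysed here.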

Additional observations from a re-analysis of the deposited data

Results flagged for a closer look

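In a group of 4 libraries, a library was picked out when its gap to the nearest other library took a larger part of the group's range than Dixon's 95% critical value. This was so in 32 of 94 groups. Hepatoblasts replicate 1 was the library in 29 of them, so that these are mostly 1 pattern and not separate results. The groups are not independent, and the variation between hepatoblast libraries was known from earlier results. The count is therefore a description and no test.

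In hepatoblasts replicate 1, the adult globins stood apart with 494 CPM for Hba-a1, 227 for Hba-a2, 777 for Hbb-bs and 430 CPM for Hbb-bt. The membrane skeleton did so with 765 CPM for Slc4a1, 340 for Sptb, 235 for Ank1, 104 for Add2 and 53.2 CPM for Epb42. The surface genes did so with 227 CPM for Ermap, 89.9 for Aqp1, 85.9 for Rhd, 85.7 for Kel, 80.3 for Rhag, 36.2 for Cldn13 and 35.7 CPM for Xk. Among regulators, there were 108 CPM for Hemgn, 77.0 for Tal1, 57.2 for Klf1, 56.8 for Trim10, 49.5 for Gata1, 43.9 for Epor, 28.8 for Nfe2 and 17.6 CPM for Gfi1b. Fech had 168 CPM, Alas2 85.3 and Tspo2 22.2 CPM. The listed genes summed to 4817 CPM and the neutrophil markers to 533 CPM in this library.

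Kel had 0.173 CPM in Diff. hepatocytes replicate 1, where the other 3 libraries had 0. Fech had 296 CPM in mature hepatocytes replicate 4, against 183 to 201 CPM in the others. The mesenchymal markers summed to 67.3 CPM in mature hepatocytes replicate 3, against 49.4 to 51.8 CPM.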

How the results depend on the processing

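Against hepatoblasts, 29 genes were lower in Diff. hepatocytes without any 1 library, and under the other alternatives between 27 and 29 were. In mature hepatocytes the count of lower genes was 27 without any 1 library and at least 25 otherwise, and the count of higher genes was 2 to 3 without each library. That count of 2 became 0 with glmTreat, which tests for a log2 fold change beyond 1 (1 gene at an unadjusted p under 0.05), and 0 with library totals. Library totals moved the median of all genes to -0.34 and -1.0 against hepatoblasts and to 0.62 between the hepatocytes.

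Between Diff. and mature hepatocytes, the count of 1 higher gene was 4 with DESeq2, 0 with glmTreat (4 at an unadjusted p under 0.05), 3 at an adjusted p under 0.05 without a fold threshold, 3 with no filter beyond 1 count, and 7 with only the 8 libraries compared, where 19 of the listed genes were tested. It was 1 to 7 without each library, with 7 only without hepatoblasts replicate 1, and 3 to 4 genes were then lower. With the replicate block it was 6. The labels do not say that a replicate number marks a shared source, and pairing was not established. The correlations of same-numbered Diff. hepatocytes and hepatoblasts were 0.324, -0.0589, 0.246 and 0.184. Of the Diff. hepatocytes, replicates 1, 3 and 4 but not 2 correlated best with the hepatoblasts of their own number. Diff. replicate 3 had nearly the same value with hepatoblasts replicate 4, at 0.242. Hepatoblasts replicate 4 thus correlated better with Diff. replicate 3 than with Diff. replicate 4. The replicate block gave 0 higher and 29 lower genes in Diff. hepatocytes against hepatoblasts, and 3 higher and 27 lower in mature hepatocytes, with Aqp1 added.

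Directions turned only in genes that were not called. Against hepatoblasts, Fech in Diff. hepatocytes was 0.10 without hepatoblasts replicate 1 (-0.48 to 0.10 without each library), and Bpgm in mature hepatocytes was -0.44 with library totals. Between the hepatocytes, library totals gave 0.03 for Hba-x, 0.24 for Epor and 0.52 for Xk. Without mature replicate 3, Hba-x was 1.64, and without Diff. replicate 1, Kel was -1.97. Without each library, Hba-x ran from -1.97 to 1.64, Kel from -1.97 to 3.25, Ermap from -0.22 to 0.31 and Xk from -0.11 to 0.10. Ermap was -0.12 without Diff. replicate 4 and -0.22 without mature replicate 2. Xk, at -0.01, was 0.00 with DESeq2 and with its size factors, 0.01 with no filter, with the 8 libraries and without hepatoblasts replicate 1, 0.08 and 0.02 without Diff. replicates 2 and 3, and 0.04 and 0.10 without mature replicates 1 and 3. The cause of these changes was not tested. DESeq2 gave no adjusted p for 1 gene, Aqp1. Depth limits the low values, since 6 of the 32 genes in Diff. hepatocytes and 12 in mature hepatocytes had 3 or fewer counts over the whole group.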
